A study of Mus musculus with 6 samples.

Results

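The 10 genes described here encode the parts by which a basal keratinocyte holds on to the basement membrane: the integrin subunits Itga6, Itgb4, Itga3, Itgb1, Itga2 and Itgb6, the transmembrane collagen Col17a1, the plakins Dst and Plec, and the tetraspanin Cd151. They were chosen by gene symbol, and each matched 1 row among the 49671 genes of the table. RNA was measured in 6 libraries of basal keratinocytes from mouse ear epidermis, 2 each from castrated males, females and intact males of CD1, an outbred stock. A library pooled 100000 living cells from 2 mice of the same litter, sorted on integrin alpha 6 at the surface and on the absence of CD34, which marks the hair follicle bulge. Neither mouse age nor the interval after castration is stated in the labels, and no transgene or other treatment is named. Variation between pools is what the p-values reflect. Which litters the pools of each group came from is not given, so whether effects of litter mix with those of sex or castration cannot be told.

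Hemidesmosomes are the rivet-like junctions that fasten keratin filaments to the basement membrane. Integrin alpha 6 beta 4 binds the main laminin of the epidermal basement membrane, plectin and the epithelial form of dystonin (BPAG1e) tie its cytoplasmic side to keratin 5 and keratin 14, and collagen XVII and CD151 join the complex. Integrins with the beta 1 subunit link the matrix to actin at focal adhesions instead, while alpha v beta 6 is an epithelial integrin known from wounds, where it activates latent TGF-beta. Loss of hemidesmosome parts causes skin blistering in mice and humans.

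The libraries held 8412487 to 9648154 reads in genes, and levels are given as CPM, read counts relative to library size after scaling between libraries. Genes were tested with limma on log2(CPM + 0.5) and called at a Benjamini-Hochberg adjusted p below 0.05 over all 15413 genes tested, and each fold change below is a difference on that log2 scale with its standard error. The cells carried the basal markers Krt5 (10060 to 13380 CPM) and Krt14 (12517 to 17417 CPM), and Cd34 lay at no more than 3.06 CPM. The second female library stood apart from the other 5 on the first principal component, at 64.2 where the first female library lay at 28.9 and the rest between -32.4 and -16.6. For the 10 genes and the called genes of related lists, values or calls without it are given beside the differences that involve females.

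All 10 genes passed the filter on low values. Their CPM summed to 10734.5 and 10592 in castrated males, 8333 and 6559 in females and 10320 and 10999 in males. Col17a1 alone made up 54.6% to 58.6% of their summed CPM in each library and ranked 5 by mean CPM among all genes tested. Levels between genes were compared as CPM per kb of annotated exon, all isoforms merged. On that scale Col17a1 (596 to 1059.9 per kb over the 6 libraries) lay above Itgb4 (69.6 to 106) and Cd151 (69.3 to 86.8), and these overlapped each other. Next came Dst (27.9 to 55.7), Plec (28.9 to 46.7), Itga6 (35.4 to 41.5) and Itgb1 (26.4 to 38.3), which also overlapped, and below them Itga3 (14.4 to 18.2). Itga2 (1.17 to 2.57) and Itgb6 (0.993 to 3.40) had the lowest levels per kb of the 10 and overlapped. The merged exons of Dst span 41.2 kb over 20 annotated transcripts, which include muscle and nerve forms far longer than the skin form, and the level per kb is divided by all of them.

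**Figure D1:**
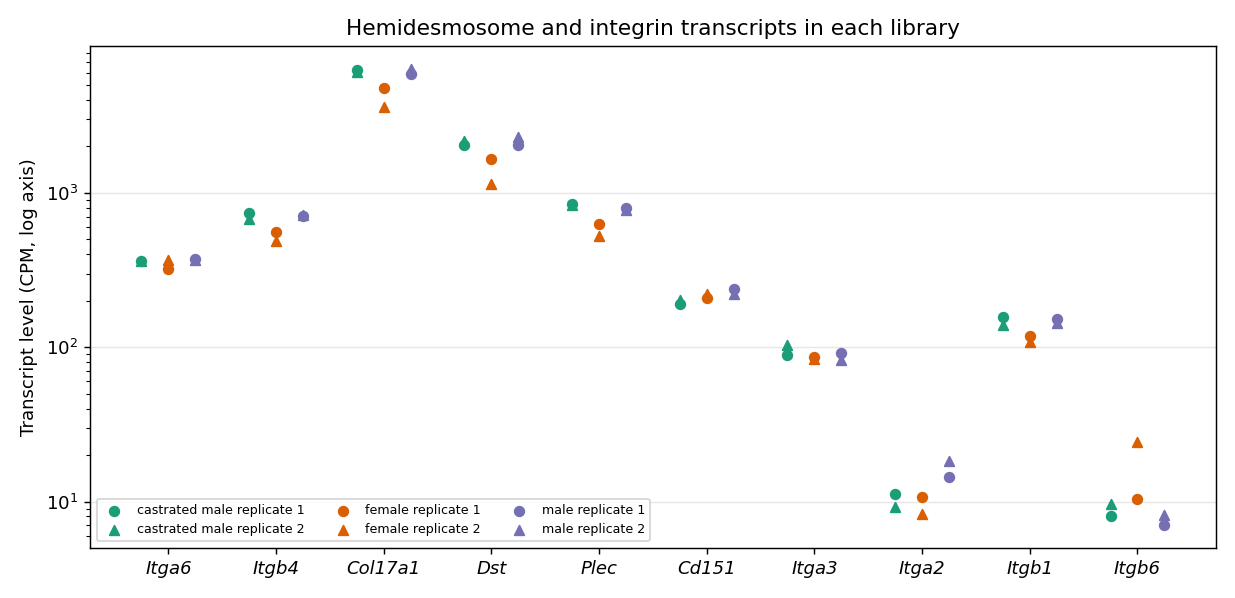
Transcript level in CPM (log axis) of each gene in the 6 libraries, with circles for replicate 1 and triangles for replicate 2 of castrated males, females and males. Both female libraries lie below the 4 others for Itgb4, Col17a1, Dst, Plec and Itgb1, and above them for Itgb6.

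Both female libraries lay below both male libraries for most of the set, but no gene of the 10 passed the test in any of the 3 comparisons. Between females and males 7 genes were lower without overlap of the libraries (Itgb4, Col17a1, Dst, Plec, Itgb1, Itga2 and Cd151), which 27.2% of all genes tested were, and Itgb6 was higher without overlap, as 26.7% were. The count of calls by limma was 0 of 10, where 6.1% of all genes tested were called, and 7 of 10 had an unadjusted p below 0.05 (4 without male replicate 1), where 24.9% of all genes did. The median log2 fold change of the 10 was -0.42, against -0.01 for all genes tested, and the adjusted p-values by limma ran from 0.0693 to 0.880. Without female replicate 2 the median was -0.32 and 0 genes were called. Without female replicate 1 it was -0.50 and limma called 5 genes, Itgb4, Col17a1, Dst and Plec as lower and Itgb6 as higher, with the remaining female library assumed to vary like the other groups.

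Between castrated and intact males limma also called 0 of the 10, which does not show equal levels, where 0.0389% of all genes tested were called. An unadjusted p below 0.05 was found for 1, Itga2, where 5.94% of all genes had one, and for 0 without castrated male replicate 2 or without male replicate 2. The median log2 fold change was -0.01, against 0.00124 for all genes tested. Libraries did not overlap for 3 genes that were lower (Itga6, Itga2 and Cd151, 18% of all genes tested) and for Plec, which was higher (17.4%). Between castrated males and females limma again called 0 of 10, where 1.68% of all genes were called, and 6 of 10 had an unadjusted p below 0.05, where 21.7% of all genes did. That count was 2 without castrated male replicate 1 and 3 without castrated male replicate 2. Here 6 genes were higher without overlap (Itgb4, Col17a1, Dst, Plec, Itgb1 and Itga3, 29.4% of all genes tested) and 2 were lower (Itgb6 and Cd151, 28.5%), with a median of 0.29 against 0.01 for all genes. Without female replicate 1 limma called Itgb4, Col17a1, Dst and Plec as higher and Itgb6 as lower in castrated males than in females, and without female replicate 2 it called 0. The 2 comparisons that involve females share the female libraries.

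**Figure D2:**
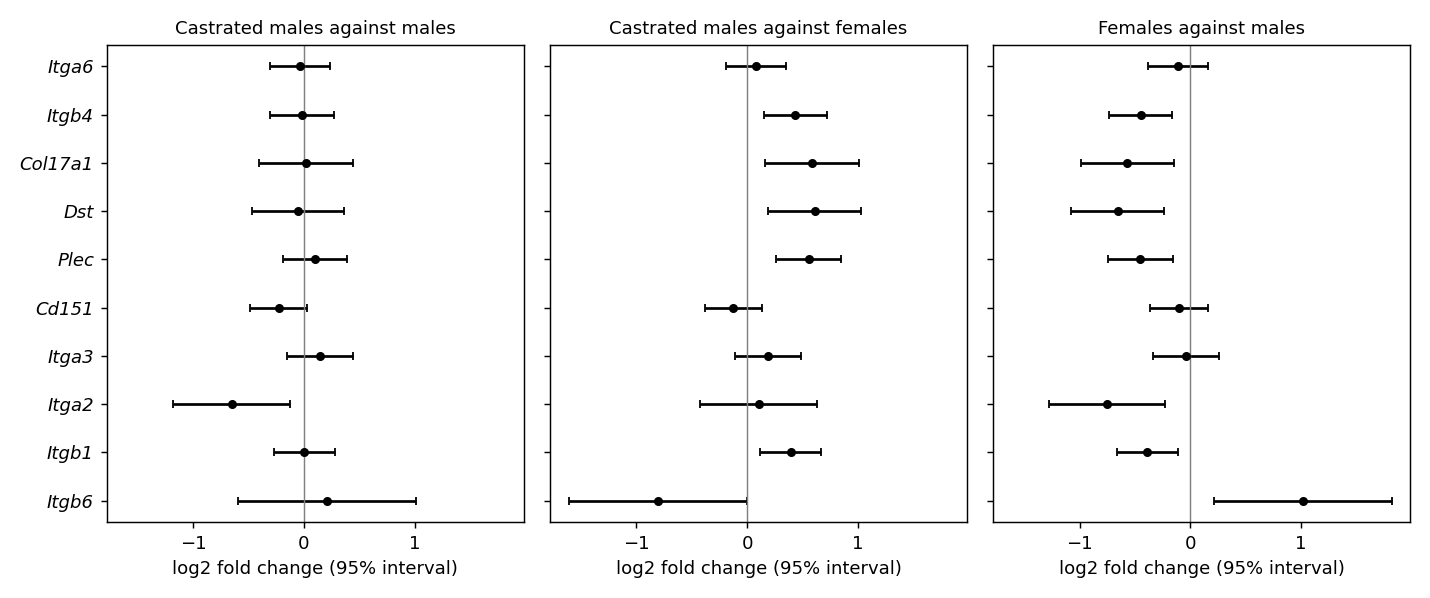
Log2 fold changes of the 10 genes in the 3 comparisons (x axis), as points with the 95% interval from limma and a line at 0. The intervals for Itgb4, Col17a1, Dst, Plec and Itgb1 lie to the right of 0 in castrated males against females and to the left in females against males, and those in castrated males against males include 0 for 9 of the 10 genes, Itga2 being the other. These intervals are not adjusted for the number of genes tested.

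The receptor of the hemidesmosome is the pair of Itga6 and Itgb4, and the protein of Itga6 was also the antigen of the sort, so its RNA was read in cells picked for that protein. Itga6 (chromosome 2, 71745616 to 71858416 in GRCm38) stood at 363 and 361 CPM in castrated males, 319 and 369 CPM in females and 375 and 368 CPM in males. The second female library lay among the males and the first lay below every other library. The log2 fold changes were -0.04 ± 0.12 for castrated males against males, 0.08 ± 0.12 for castrated males against females and -0.11 ± 0.12 for females against males, with adjusted p-values by limma of 1.00, 0.740 and 0.592. Without female replicate 2 the last 2 became 0.18 and -0.21.

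Itgb4, the partner of Itga6 with the long cytoplasmic tail that binds plectin, stood at 742 and 673 CPM in castrated males, 560.2 and 488 CPM in females and 713 and 717 CPM in males (chromosome 11, 115974709 to 116008412). Both female libraries were below the other 4. Its log2 fold change was -0.45 ± 0.13 in females against males (adjusted p = 0.0698 by limma, -0.35 without female replicate 2) and 0.43 ± 0.13 in castrated males against females (adjusted p = 0.109, 0.33 without that library). Castrated and intact males overlapped (-0.02 ± 0.13, 95% interval -0.30 to 0.27). An antisense transcript, B230344G16Rik, shares 537 bases of exon with Itgb4, and whether the counting used strand is not given in the sources used here.

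Collagen XVII, the product of Col17a1, crosses the cell membrane and reaches into the basement membrane. Col17a1 (chromosome 19, 47646344 to 47692094) had 6291 and 6097 CPM in castrated males, 4749 and 3584 CPM in females and 5878 and 6371 CPM in males. The female libraries were again the lowest pair, and the second was below the first. Females against males gave -0.57 ± 0.19 (0.674 of the male level, adjusted p = 0.104 by limma) and castrated males against females 0.59 ± 0.19 (adjusted p = 0.127). Without female replicate 2 the values were -0.36 and 0.38. Castrated against intact males gave 0.02 ± 0.19, with a 95% interval from -0.41 to 0.44.

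Col17a1 and Itgb1 are examples of genes with their lowest levels in both female libraries, and Itgb6 is the gene with its highest levels there. For that contrast, chosen after the values were seen, a promoter window of each is shown. A window runs from 250 bases before to 50 bases after an annotated start in RefSeq's GRCm38.p6. Windows were matched by symbol, and 7 of the 10 genes had 11 windows. Capitals mark the letters TATAAA and GGGCGG on either strand, and TGANTCA, the letters of an AP-1 element, was also searched on both strands.

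Col17a1, minus strand, chr19:47691993-47692292: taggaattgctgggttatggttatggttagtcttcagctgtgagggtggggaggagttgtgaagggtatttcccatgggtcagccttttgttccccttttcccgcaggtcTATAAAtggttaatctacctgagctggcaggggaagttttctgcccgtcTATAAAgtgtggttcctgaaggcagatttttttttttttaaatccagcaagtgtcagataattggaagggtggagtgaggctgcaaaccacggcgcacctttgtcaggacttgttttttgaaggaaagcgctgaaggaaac

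Itgb1, plus strand, chr8:128685404-128685703: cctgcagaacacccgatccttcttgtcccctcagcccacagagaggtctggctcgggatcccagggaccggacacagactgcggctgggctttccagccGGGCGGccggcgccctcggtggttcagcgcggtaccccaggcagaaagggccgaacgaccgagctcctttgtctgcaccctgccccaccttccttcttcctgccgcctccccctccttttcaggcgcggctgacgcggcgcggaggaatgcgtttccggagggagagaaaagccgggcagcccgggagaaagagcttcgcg

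Itgb6, minus strand, chr2:60722554-60722853: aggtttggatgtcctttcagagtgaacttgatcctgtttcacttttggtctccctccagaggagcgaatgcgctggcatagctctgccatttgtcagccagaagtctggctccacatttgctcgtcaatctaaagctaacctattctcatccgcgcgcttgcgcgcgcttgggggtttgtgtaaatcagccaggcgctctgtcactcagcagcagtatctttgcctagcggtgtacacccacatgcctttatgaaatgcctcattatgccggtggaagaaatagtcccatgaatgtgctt

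The Col17a1 window held TATAAA at 2 places, the first starting 140 bases before the start, and the Itgb1 window held GGGCGG once, 151 bases before the start. None of the 3 motifs was found in the Itgb6 window shown, nor in another Itgb6 window that is not shown. Dst, also lowest in both female libraries, had a window with GGGCGG at 4 places and another with none of the motifs. Among all 32851 windows of the same length, TATAAA was found in 13.6%, GGGCGG in 35.7% and TGANTCA in 7.81%, and no 2 of the matches shown overlapped. The GC share of the windows shown was 46.3% for Col17a1, 67.3% for Itgb1 and 50.3% for Itgb6.

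Dst and Plec encode the plakins that connect the hemidesmosome to keratin filaments. Dst (chromosome 1, 33908225 to 34308661) had 2037 and 2159.7 CPM in castrated males, 1647 and 1149 CPM in females and 2056 and 2294 CPM in males. The female libraries lay below the other 4 and were 0.52 apart on the log2 scale. Females against males gave -0.66 ± 0.18 (0.634 of the male level, adjusted p = 0.0693 by limma, -0.39 without female replicate 2). Castrated males against females gave 0.61 ± 0.18 (adjusted p = 0.116, 0.35 without that library) and castrated against intact males -0.05 ± 0.18. The table sums all forms of Dst, so the epithelial form was not measured on its own. On the opposite strand Gm26788 shares 1037 bases of exon with Dst, and A930005N03Rik shares 456.

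Plec (chromosome 15, 76170974 to 76232574) had 847 and 836 CPM in castrated males, 626 and 523 CPM in females and 795 and 775 CPM in males. The 3 groups did not overlap, with castrated males above males and females below both. Castrated males against females gave 0.56 ± 0.13 (1.47 times the female level, adjusted p = 0.0708 by limma, 0.42 without female replicate 2), and females against males -0.45 ± 0.13 (adjusted p = 0.0723, -0.32 without that library). Castrated against intact males differed by 0.10 ± 0.13 with an adjusted p of 1.00. Parp10 shares 205 bases of exon with Plec on the same strand.

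Cd151, a tetraspanin that associates with the laminin-binding integrins, had another order of the groups than the other hemidesmosome genes. It had 190 and 203 CPM in castrated males, 207 and 221 CPM in females and 238 and 223 CPM in males (chromosome 7, 141467392 to 141471473). Castrated males were lowest, females lay between and males were highest, without overlap of the groups. Castrated against intact males gave -0.23 ± 0.11 (adjusted p = 0.886 by limma), castrated males against females -0.12 ± 0.11 (adjusted p = 0.557) and females against males -0.10 ± 0.11 (adjusted p = 0.611), so none passed. Without female replicate 2 the last 2 were -0.08 and -0.15. Gm10575, on the opposite strand, shares 193 bases of exon with Cd151.

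**Figure D3:**
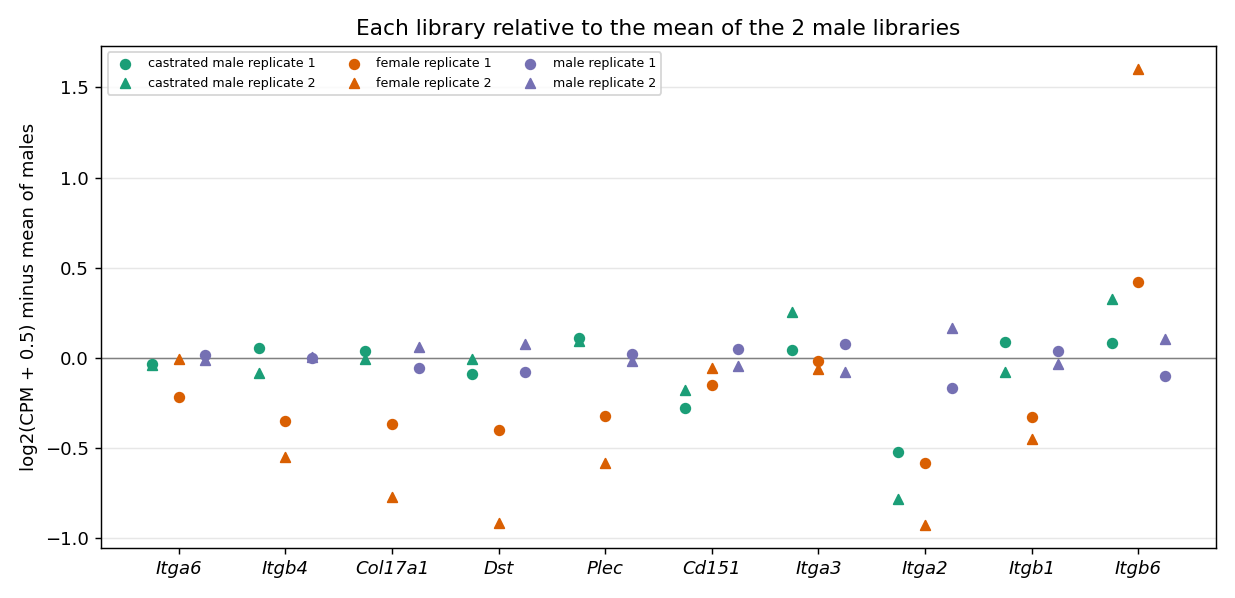
Difference of each library from the mean of both male libraries on the log2(CPM + 0.5) scale, for each gene, with circles for replicate 1 and triangles for replicate 2. The second female library lies farther from 0 than the first for each gene except Itga6 and Cd151, and both castrated male libraries lie below 0 for Itga6, Itga2, Dst and Cd151.

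Of the beta 1 integrins, Itgb1 encodes the shared subunit, Itga3 its laminin-binding partner and Itga2 its collagen-binding partner. Itgb1 (chromosome 8, 128685654 to 128733200) had 156 and 140 CPM in castrated males, 117 and 108 CPM in females and 151 and 144 CPM in males. Both female libraries were the lowest, as with Itgb4. The log2 fold change was -0.39 ± 0.12 in females against males (adjusted p = 0.0926 by limma, -0.32 without female replicate 2) and 0.39 ± 0.12 in castrated males against females (adjusted p = 0.122, 0.33 without that library), while castrated and intact males differed by 0.00391 ± 0.12.

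Itga3 (chromosome 11, 95044474 to 95076801) had 89.5 and 104 CPM in castrated males, 86.0 and 83.2 CPM in females and 91.8 and 82.3 CPM in males. Females and males overlapped (-0.04 ± 0.13, 95% interval -0.34 to 0.26), unlike for Itgb1. Castrated males gave 0.15 ± 0.13 against males and 0.19 ± 0.13 against females, with adjusted p-values by limma of 0.999 and 0.434. Without female replicate 2 females against males gave -0.01 and castrated males against females 0.16.

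Itga2 had 11.2 and 9.24 CPM in castrated males, 10.7 and 8.32 CPM in females and 14.4 and 18.3 CPM in males (chromosome 13, 114833081 to 114932100). It was the gene of the 10 for which castrated males lay with females, both below intact males. These values rest on 98 and 81 reads in castrated males, 104 and 65 in females and 135 and 156 in males, and the exact 95% Poisson intervals, which cover counting error only, are 79.6 to 119 and 64.3 to 101 reads in castrated males and 113 to 160 and 132 to 182 reads in males. Castrated against intact males gave -0.65 ± 0.23 (0.636 of the male level, adjusted p = 0.760 by limma) and females against males -0.76 ± 0.23 (0.592 of the male level, adjusted p = 0.0882, -0.58 without female replicate 2). Castrated males against females gave 0.10 ± 0.23, with a 95% interval from -0.42 to 0.63, and turned to -0.070 without female replicate 2.

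Itgb6, which pairs with alpha v, was the single gene of the 10 with a higher mean in females than in males. It had 8.11 and 9.69 CPM in castrated males, 10.4 and 24.2 CPM in females and 7.06 and 8.23 CPM in males (chromosome 2, 60598292 to 60722643). The second female library stood far above the other 5, whereas the first lay just above castrated males. Those libraries held 189 reads (exact 95% Poisson interval 163 to 218) and 101 reads (82.3 to 123), against 71 and 85 reads in castrated males and 66 and 70 in males. Females against males gave 1.01 ± 0.35 (2.02 times the male level, adjusted p = 0.122 by limma), which was 0.43 without female replicate 2 and 1.61 without female replicate 1. Castrated males against females gave -0.81 ± 0.35 (adjusted p = 0.228, -0.22 without female replicate 2), and castrated against intact males 0.21 ± 0.35.

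Ratios between partner transcripts, taken per kb of exon within a library, do not depend on the scaling between libraries. Itga6 over Itgb4 was 0.380 and 0.417 in castrated males, 0.443 and 0.588 in females and 0.409 and 0.399 in males. The female libraries thus had the highest ratios. Itga3 over Itgb1 was 0.409 and 0.531 in castrated males, 0.524 and 0.552 in females and 0.434 and 0.410 in males, so that females overlapped with castrated males and not with males. Itgb4 over Itgb1, by contrast, ran from 2.64 to 2.90 over all 6 libraries, and Col17a1 over Itgb4 from 8.57 in female replicate 2 to 10.6 in castrated male replicate 2. No test was run on the ratios, which are given as a description.

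**Figure D4:**
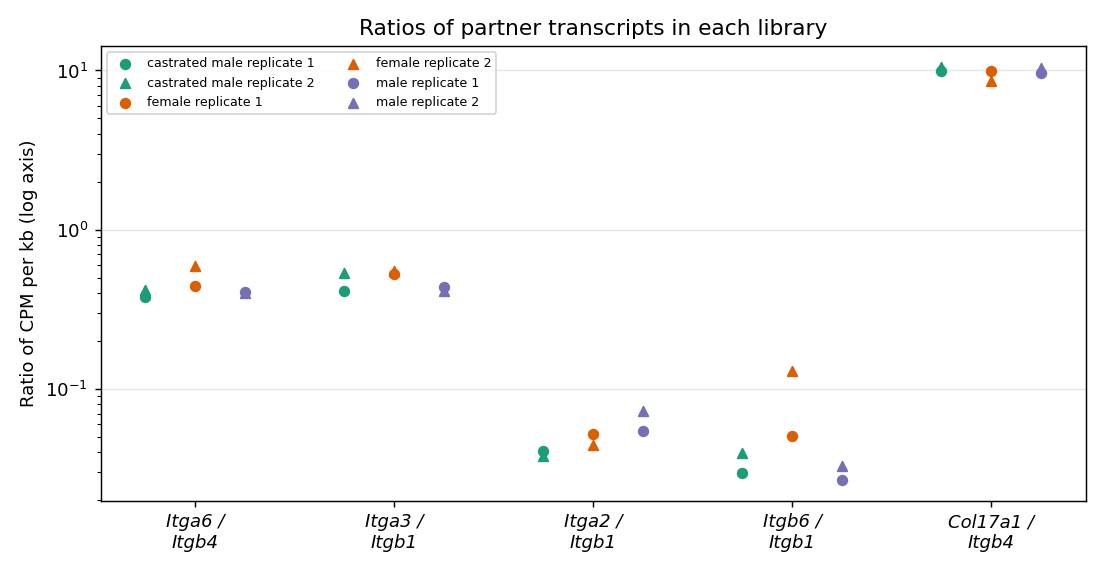
Ratio of CPM per kb of exon (log axis) between partner transcripts in each library, with circles for replicate 1 and triangles for replicate 2 of castrated males, females and males. Itga6 over Itgb4 and Itgb6 over Itgb1 are highest in both female libraries, and Itga2 over Itgb1 is lowest in both castrated male libraries (0.0410 and 0.0379).

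Beyond the 10 genes, 12 of 21 other integrin subunits could be tested. In females against males Itga7, a laminin-binding subunit best known from muscle, rose to 7.92 and 20.1 CPM in females, against 1.18 and 1.18 CPM in males (log2 fold change 2.97 ± 0.42, adjusted p = 0.00943 by limma, 0.0764 without female replicate 2). It fell in castrated males against females, with 1.14 and 1.14 CPM in castrated males (-3.00 ± 0.42, adjusted p = 0.0164, where 1.14% of all genes tested were called lower, 0.106 without female replicate 2, and 0.166 and 0.128 without castrated male replicate 1 and 2). The values of Itga7 rest on 10 and 10 reads in castrated males, 77 and 157 in females and 11 and 10 in males. Those of both male groups lay near the cut of the filter on low values. The other 11 subunits did not pass in any comparison. They included Itgav, the partner of Itgb6, at 58.8 and 53.5 CPM in castrated males, 59.0 and 57.6 CPM in females and 65.4 and 53.6 CPM in males. The list's medians were 0.04 in castrated males against males, -0.22 in castrated males against females and 0.21 in females against males. Of 27 listed integrin activators and focal adhesion adaptors, 25 were tested and 0 were called by limma in any comparison, with medians of 0.02, 0.21 and -0.17 in the same order. Among them Tln1, the talin that switches integrins on, had 228 and 206 CPM in castrated males, 183 and 160 CPM in females and 212 and 208 CPM in males.

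The ligands and anchors of these receptors included laminin chains and matrix proteins, and 16 of them could be tested. In females against males 2.39% of all genes tested were called lower and 3.7% higher. Lama3 and Lamb3, which encode laminin chains, did not pass, at -0.64 ± 0.16 and -0.51 ± 0.14 (adjusted p = 0.0509 and 0.0605 by limma, -0.39 and -0.47 without female replicate 2). Lamb1, another laminin chain, fell by 1.26 ± 0.24 (adjusted p = 0.0255, 0.125 without female replicate 2). Tnc, which encodes tenascin C, a matrix protein of wounds, rose to 251 and 448 CPM in females, against 101 and 36.0 CPM in males (2.47 ± 0.43, adjusted p = 0.0202, 0.181 without that library). Tnc was also lower in castrated males than in females (51.6 and 66.8 CPM in castrated males, -2.50 ± 0.43, adjusted p = 0.0329, 0.324 without female replicate 2, and 0.281 and 0.178 without castrated male replicate 1 and 2), the single call of the list in that comparison. The medians were -0.12 in castrated males against males, where limma called 0 of the 16, 0.34 in castrated males against females and -0.52 in females against males. Without female replicate 2 the last 2 were 0.20 and -0.26.

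Of 9 tested tetraspanins other than Cd151, Tspan3 rose in females against males (37.7 and 49.3 CPM in females, 20.8 and 11.4 CPM in males, 1.46 ± 0.27, adjusted p = 0.0232 by limma, 0.209 without female replicate 2), and Cd9, the most abundant, did not pass (-0.13 ± 0.13, -0.15 without that library). The medians of that list were -0.01, -0.01 and -0.11 in castrated males against males, castrated males against females and females against males, and limma called 0 genes in the comparisons with castrated males. Of 7 genes of the TGF-beta ligands and their latency proteins, Tgfb2 fell in females, with 17.4 and 11.9 CPM in females against 30.2 and 43.2 CPM in males (-1.30 ± 0.25, adjusted p = 0.0250, 0.192 without female replicate 2). Its value in castrated males, 25.6 and 33.3 CPM, gave no call, and the medians of the 7 genes were -0.29, 0.09 and -0.49 in the same order, the last 2 being -0.14 and -0.24 without female replicate 2. Lamb1, Tspan3 and Tgfb2 also missed the threshold without either castrated male library, which enters through the shared spread (adjusted p by limma from 0.0550 to 0.0614). Without male replicate 2 Lamb1 and Tgfb2 missed it (0.0797 and 0.0844).

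Levels of other cell markers and of activation genes differed between the same libraries. The summed CPM of 9 genes of wound-activated keratinocytes was 846 and 951 in castrated males, 1619 and 3557 in females and 876 and 1014 in males. For 8 suprabasal markers the sums were 2253 and 2516 in castrated males, 2439 and 3069 in females and 1979 and 1811 in males. The 4 basal markers summed to 38161 and 38108 CPM in castrated males, 35814 and 38898 CPM in females and 35613 and 41250.2 CPM in males, with Krt15 lowest in females (9272 and 6338 CPM). In females against males 5 of 8 tested wound genes, 2 of 8 suprabasal genes and 0 of 4 basal genes were called by limma, each of them higher. Of all genes tested 3.7% were called higher in that comparison. Among the wound genes, S100a8 had 3 to 10 reads, S100a9 0 to 6 reads and Lcn2 3 to 13 reads in the castrated and intact male libraries. These genes passed the filter on low values only through the female libraries. Any calls of them in comparisons with females are therefore not independent of that filter. In castrated males against females 5 of the wound genes were called, each of them lower, and 0 suprabasal and 0 basal genes. Of all genes tested 1.14% were called lower there. For 16 markers of Langerhans cells and other leukocytes the sums were 434 and 504 CPM in castrated males, 1367 and 3333 CPM in females and 409 and 454 CPM in males, and 5 of 14 tested rose (Cd74, H2-Aa, H2-Ab1, S100a8 and S100a9, the last 2 also in the wound list) in females against males, while 5 of 14 fell in castrated males against females, with Cpa3 at 0 reads in every library. The defining leukocyte gene Ptprc had 4.68 and 3.19 CPM in castrated males, 2.57 and 3.71 CPM in females and 2.25 and 4.47 CPM in males, and Cd207 of Langerhans cells 6.85 and 5.02, 5.35 and 6.91, and 6.63 and 8.47 CPM in the same groups. The median log2 fold changes in females against males were 2.52 for the wound, 0.64 for the suprabasal and 0.31 for the leukocyte list. Without female replicate 2 they were 1.40, 0.45 and 0.20, with 7 wound and 13 leukocyte genes tested. In castrated males against females the wound and leukocyte medians were -2.26 and -0.25, and without that library -1.39 and 0.09. In bulk samples fewer cells of a type and less RNA per cell cannot be told apart, and the part of these other genes in the differences of the 10 was not tested.

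**Figure D5:**
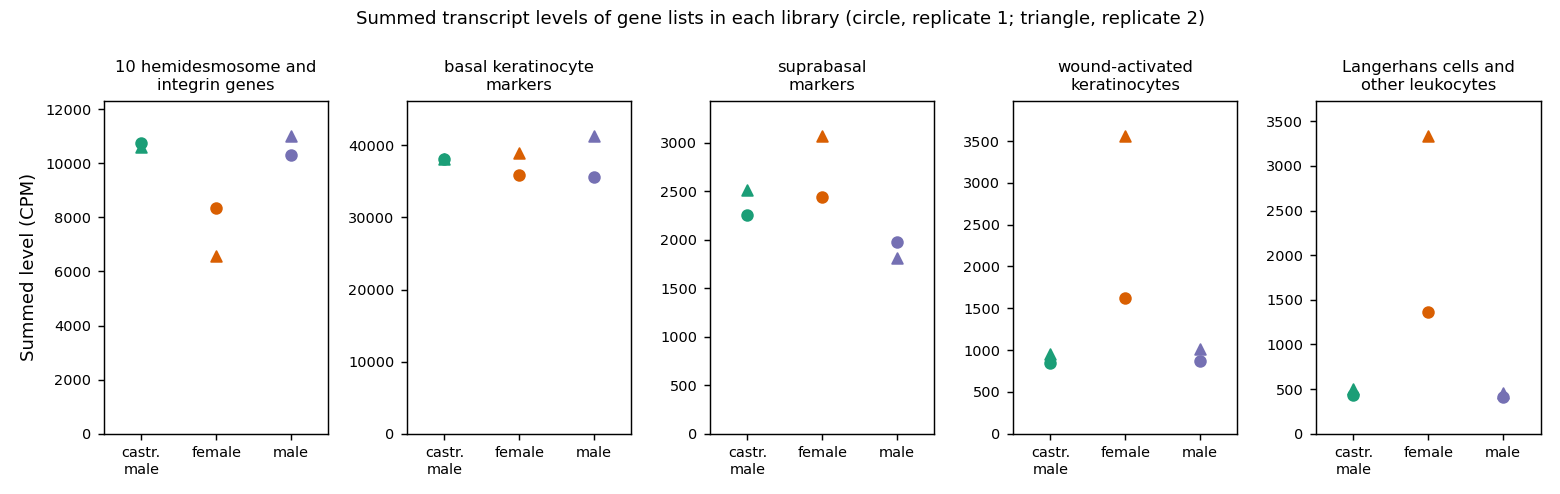
Summed CPM of the 10 hemidesmosome and integrin genes and of 4 marker lists in each library (y axes start at 0), for castrated males, females and males. The female libraries are the lowest for the 10 genes and the highest for the summed wound-activated and leukocyte marker lists, with the second female library the more extreme each time. These marker lists share S100a8 and S100a9, and the leukocyte markers Ptprc and Cd207 overlapped between females and males.

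The remaining marker lists were small. The sums ran from 50.0 to 84.7 CPM in castrated males, 34.0 to 44.0 CPM in females and 50.1 to 58.7 CPM in males for 8 melanocyte markers, of which Mitf was called lower in females than in males (adjusted p = 0.0276 by limma, 0.171 without female replicate 2), and from 139 and 136, 144 and 117, and 181 and 125 CPM for 7 bulge markers, 0 of which were called by limma in any comparison. Merkel cell (0.913 to 5.67 CPM), fibroblast (15.3 to 38.9 CPM) and endothelial and mural cell markers (4.34 to 9.95 CPM, Rgs5 at 0 reads) had no called gene among the 5 that could be tested. Gene length also moved with the comparison of the sexes. Log2 fold changes of females against males had a Spearman rho of -0.132 with merged exon length across 15362 genes, which share libraries and are not independent, and the 1491 longest genes (9.23 kb and over) had a median of -0.12. Dst and Plec are among them, Cd151 at 2.74 kb is the shortest of the 10, and the part of length in the differences was not tested.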

How the data were processed

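RNA-seq of 6 libraries was analysed. The tools named in the submitters' processing notes are HTSeq 0.11.1, Picard, STAR 2.7.5a and FastQC, with the build GRCm38; no strand setting or annotation is given there. The deposited values are scores: counts that the authors had scaled to about the same total per library and rounded, as the values show. Each column rises in steps of 2.07 to 2.38, and 100% of its values lay within rounding (0.5) of a multiple, which returned whole reads. Because the columns themselves are not counts, limma 3.58.1 (R 4.3.3) was used as planned, and not the count test planned for raw counts.

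Genes with 1.16 CPM (10 reads at the median depth) in 2 libraries and 15 reads in all were kept. Library sizes over these genes were scaled with TMM factors, and log2(CPM + 0.5) was fitted with 1 mean per group (3 residual degrees of freedom, intensity trend). The test was two-sided, and the procedure was tested on simulated data. These data gave every gene and library the same dispersion, so they cannot show how the procedure performs when a library stands apart. A read was worth 0.103 to 0.128 CPM. Exon lengths and positions are from GENCODE M21.

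All 10 genes are named, and from the lists of related genes each called one plus abundant ones; 1 gene is not reported here. The genes and lists were chosen with earlier results of these data known. Libraries of a group differed by more than sampling noise (chi-square per degree of freedom 4.41 to 12.3).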

Additional observations from a re-analysis of the deposited data

How the results depend on the processing

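Of 370 fold changes of the 10 genes under other settings, 347 kept their direction and their side of the threshold, 12 became called and 11 changed sign, all of these between values near 0, and the cause was not tested. Calls among the 10 genes ranged from 0 to 5 when 1 library was left out, both in females against males and in castrated males against females, and stayed at 0 in castrated against intact males. The number of all genes called was 940 in females against males. It was 103 without the filter on low values, 263 with the 2 groups alone and 50 to 1698 with 1 library left out, the lowest without female replicate 2 and the highest without female replicate 1. In castrated males against females 259 were called, against 33 without the filter, 495 with the 2 groups alone, 153 with the replicate block and 30 to 1256 with 1 library left out, without castrated male replicate 2 and without female replicate 1. In castrated against intact males 6 were called, against 11 with a pseudocount of 2, 2 without the filter, and 1 to 62 with 1 library left out, without either castrated male library and without male replicate 2.

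The signs that changed when a library was left out belong to ranges of -0.12 to 0.047 for Itga3 (females against males), -0.087 to 0.054 for Itgb4, -0.077 to 0.086 for Itgb1, -0.034 to 0.076 for Col17a1 and -0.12 to 0.029 for Dst (all castrated against intact males), and -0.070 to 0.27 for Itga2 and -0.032 to 0.18 for Itga6 (castrated males against females). With library totals in place of TMM factors Itgb4 in castrated against intact males was 0.000705.

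The labels tie no replicate number to a litter or day, and the submitters' library name gives the second male library another number. Deviations of same-numbered libraries correlated at -0.154 (female and male), -0.0104 (castrated male and male) and 0.194 (castrated male and female). With 2 libraries per group these values cannot settle whether libraries were paired. With the numbers as a block 799, 5 and 153 genes were called in females against males, castrated against intact males and castrated males against females, and 0 of the 10 genes in each. A block with male numbers crossed, chosen after seeing the data, gave 1320 calls in females against males, 2 of them among the 10 genes. The edgeR test, planned for a table of raw counts, and DESeq2 were not run on the recovered reads. The low reads of Itga2 and Itgb6 limit what could be detected for them.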
